A study of Mus musculus with 4 samples.

Results

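The renin angiotensin system genes Agt, Ren1, Ace, Enpep, Agtr1a, Agtr2 and Agtrap were followed in fetal mouse lungs with reduced Fgf8, a fibroblast growth factor ligand needed in the embryo. Their probes were every non-control spot of the arrays that carries 1 of these 7 gene names. This gave 14 probes, with 1 spot each on every array, among 41174 probes in all, and 13 of the 14 passed the filter on dim probes.

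The renin angiotensin system makes a small peptide hormone from a secreted precursor. Renin cuts angiotensinogen to angiotensin I, angiotensin converting enzyme cuts that to angiotensin II, and aminopeptidases shorten it further. Angiotensin II acts on G protein-coupled receptors, of which the AT1 receptor raises vascular tone and the AT2 receptor is best known from fetal tissues. The lung capillary bed is a classical site of the converting enzyme.

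Fetal lungs were taken at stage E18.5, counted in days of gestation, and the lobes were separated from the large airways and vessels. Controls were Fgf8+/+ wild type littermates and mutants were hypomorphs written Fgf8H/-, a hypomorphic allele over a null allele. Both genotypes were of the c57nl7/sv129 background as the labels spell it, the sample titles call the comparison AP/N against WT, and no other agent or allele is given. Each of 4 two-colour Agilent arrays compared 1 pool of 3 wild type lungs, labelled with Cy3, with 1 pool of 3 hypomorph lungs, labelled with Cy5. Values are log2 ratios, hypomorph over wild type, so a negative ratio is a lower signal in the hypomorph. Because each pool mixes whole lobes, fewer cells of a type and less RNA per cell cannot be told apart. Every hypomorph pool carried Cy5, so a probe's response to the dye and to the genotype cannot be told apart either.

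Between 32491 and 33744 of 43379 spots were well above background in the wild type pools and between 32731 and 34519 in the hypomorph pools. Up to 8 spots per array were saturated, and member spots with an outlier mark are named below. The number of arrays limits the precision, and the median 95% half-interval of a gene's log2 ratio was 0.13. Spike-in controls on the arrays gave slopes of observed on expected log ratio of 0.690 to 0.718, below 1, so the log ratios of the spike-ins were read as smaller than they were. Fgf8 itself had log2 ratios of -0.31, -0.23, -0.09 and -0.09 on arrays 1 to 4, a mean of -0.18 ± 0.11 (SD, n = 4), with an adjusted p of 0.0549 by limma. The ratio of the targeted gene was below 0 on each array but did not pass the test.

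Lower signals in the hypomorph were found for the precursor gene Agt, for both enzymes that act on its peptides, Ace and Enpep, and for the receptor gene Agtr1a. Their mean log2 ratios lay between -0.48 and -0.22. Ren1, Agtr2 and the receptor-associated protein gene Agtrap did not pass the test. By limma's moderated test with Benjamini-Hochberg adjustment over all 20611 genes, 4 of the 7 members were lower and 0 were higher, where 13.2% of all genes were lower and 14.0% higher at an adjusted p under 0.05. In either direction 27.2% of all genes were called. Without adjustment, at a p under 0.05, the counts of members were the same, 4 lower and 0 higher. The median ratio of the members was -0.22, beside 0 for all genes. All 7 means, of the brightest probe of each gene, were below 0 with loess, while those of Agtr2 and Agtrap were above 0 with median centring. The dimmer Agtrap probes had means of -0.07, 0.09 and 0.14 with loess. Per array the members' median was -0.24, -0.27, -0.42 and -0.25. The value of array 3 rests on fewer members, because Ren1 and Enpep had no value there.

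**Figure D1:**
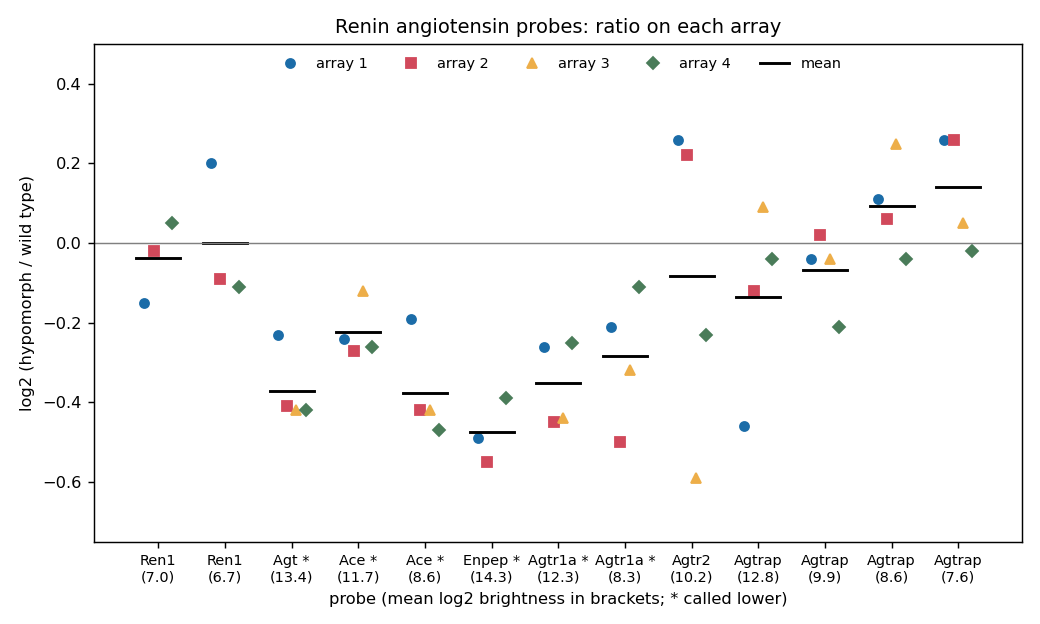
The log2 ratio of hypomorph over wild type is plotted for each of the 13 member probes, with 1 symbol per array and a bar for the mean. Numbers in brackets are the probe's mean log2 brightness, and a star marks probes called lower. Points of the Agt, Ace, Enpep and Agtr1a probes all lie below 0, and those of Agtr2 spread from -0.59 to 0.26.

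The call of the 4 members depended on the normalization within arrays. When each array was centred on its median, in place of loess, 0 of 7 members were called by limma, and 0 had an unadjusted p under 0.05. Their median was then -0.01, while the median of all genes rose to 0.13. The ratios were therefore also set beside those of the 500 genes nearest in brightness, a comparison chosen after the values were seen. With loess, Agt lay 0.35 below the median of these genes, which was -0.02, and with median centring it lay 0.35 below a median of 0.29. Agtr1a lay 0.36 below its neighbours in brightness both ways, and Ace lay 0.23 below both ways. Enpep lay 0.39 below with loess and 0.35 below with median centring, where the neighbours' median was 0.35. These settings differ by a correction along brightness, so the distances had to be alike by construction and do not support the calls. They give the size of the correction at each gene's brightness, which for the dim Ren1 ran the other way, from a neighbours' median of 0.01 with loess to -0.11 with median centring.

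**Figure D2:**
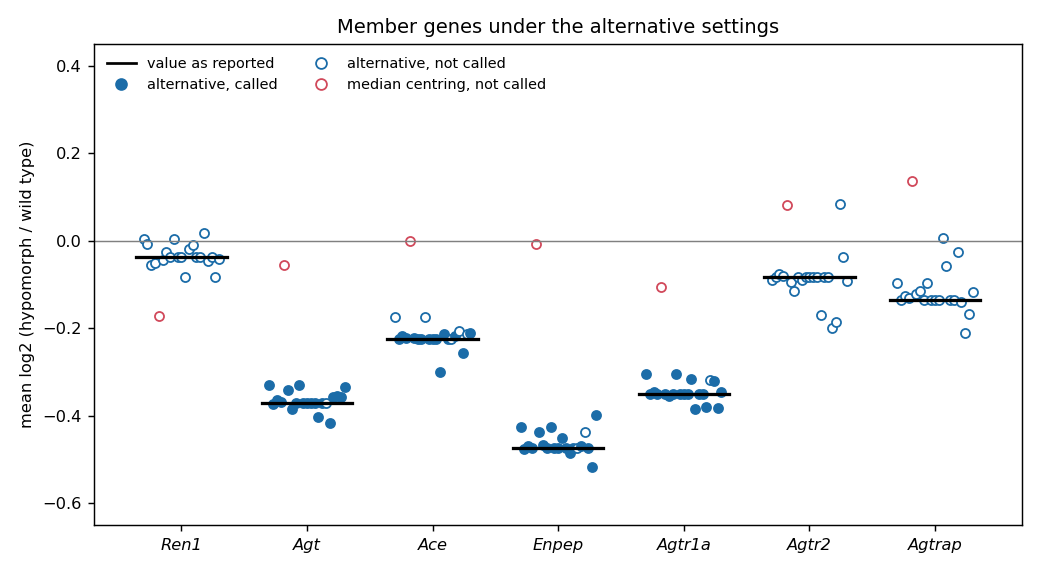
Each circle is a member gene's mean log2 ratio, hypomorph over wild type, under 1 alternative setting, filled where it was called, and the bar is the value as reported. Median centring, in red, moved Enpep from -0.48 to -0.01 and Agt from -0.37 to -0.05. Agtr2 also moved when 1 replicate was left out, from -0.20 without replicate 1 to 0.08 without replicate 3.

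Leaving out replicate 2 left 1 called member, Agt, in a fit in which 6.67% of all genes were called, and leaving out replicate 4 left 3, without Ace. Comparing the channels without the array as a pair also left 1, Agtr1a, where 6.79% of all genes were called.

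Promoter windows of Agt, Ace and Enpep are printed because these genes were lower together. The fourth lower member, Agtr1a, had no window in the table used. RefSeq windows of 250 bases before the start site were found for the other 6 members in build GRCm38.p6, and motifs were searched in them on both strands, with matches in capitals. The TATA box was searched as TATAAA. The other searches were for CCAAT and, as the GC box, for GGGCGG. Agt lies on the minus strand at chr8:124569707-124569956, and the upstream Ace window lies on the plus strand at chr11:105967698-105967947. The downstream Ace window, at chr11:105974939-105975188, begins 7241 bases further on, where the shorter testis form of the enzyme is known to start, and Enpep lies on the minus strand at chr3:129332750-129332999.
Agt: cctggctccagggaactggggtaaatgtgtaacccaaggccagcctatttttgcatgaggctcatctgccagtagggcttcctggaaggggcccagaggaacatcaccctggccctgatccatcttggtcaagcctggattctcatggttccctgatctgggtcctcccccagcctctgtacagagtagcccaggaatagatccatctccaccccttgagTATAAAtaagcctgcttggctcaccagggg
Ace, upstream start: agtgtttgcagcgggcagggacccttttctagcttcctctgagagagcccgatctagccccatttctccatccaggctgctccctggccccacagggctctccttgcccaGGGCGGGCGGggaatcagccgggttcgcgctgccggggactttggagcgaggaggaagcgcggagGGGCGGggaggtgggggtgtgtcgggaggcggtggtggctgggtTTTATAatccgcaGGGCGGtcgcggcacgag
Ace, downstream start: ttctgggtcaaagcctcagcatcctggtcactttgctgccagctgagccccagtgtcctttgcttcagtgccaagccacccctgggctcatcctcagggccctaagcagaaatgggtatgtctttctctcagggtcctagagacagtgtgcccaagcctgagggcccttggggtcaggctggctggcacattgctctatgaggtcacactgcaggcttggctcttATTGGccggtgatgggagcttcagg
Enpep: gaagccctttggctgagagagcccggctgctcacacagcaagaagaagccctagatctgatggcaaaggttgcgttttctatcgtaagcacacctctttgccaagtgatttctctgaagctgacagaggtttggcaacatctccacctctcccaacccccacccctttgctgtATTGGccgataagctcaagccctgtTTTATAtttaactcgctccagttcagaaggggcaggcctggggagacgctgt
In Agt, TATAAA begins 30 bases before the start site. The upstream Ace window holds TATAAA on the opposite strand and 4 matches of GGGCGG, of which the first 2 overlap, in a window of 67.2% G and C. The downstream Ace window holds CCAAT on the opposite strand. Enpep holds both TATAAA and CCAAT on the opposite strand. Members that were not called held matches too, with TATAAA beginning 29 bases before the start of Ren1 and CCAAT on the opposite strand in Agtr2. Of 32851 mouse promoter windows of the same length, 12.4% held TATAAA, 33.8% CCAAT and 32.7% GGGCGG. A match is a description of these letters and not a site.

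Agt encodes angiotensinogen, the precursor of all angiotensin peptides, secreted mainly by the liver. Its probe lies at chr8:127442851-127442910 in build mm8, on the minus strand. Wild type pools on arrays 1 to 4 had normalized log2 signals of 13.47, 13.45, 13.75 and 13.79, and the hypomorph pools had 13.24, 13.04, 13.33 and 13.38. Every hypomorph pool was below every wild type pool, as for 8.71% of the genes with values on 4 arrays. The log2 ratio was -0.37 ± 0.09 (SD, n = 4), a 1.29-fold lower signal, with an adjusted p of 0.00637 by limma. On array 1 the ratio was -0.23, and on the other arrays it was -0.41, -0.42 and -0.42. Of all genes, 5.6% had a lower ratio than Agt.

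Agt was called in 19 of 21 alternatives, all but median centring and the unpaired channels. Not all of these could differ. Aquantile and the changed filters and probe rules left its ratio at -0.37, and the deposited table repeated the processed signals. Liver markers were examined beside Agt, since liver is its best known source. Of 8 markers, 4 could be tested and 1 was lower, Ahsg, a fetal plasma protein gene, with a log2 ratio of -1.22 ± 0.64 (SD, n = 4) and an adjusted p of 0.0153. This is 25% called, near the 27.2% of all genes. No liver marker was called lower without replicate 2 or without replicate 3, and 2 were without replicate 4. Apoa1, Ttr and Fgb were not well above background in either genotype. The summed linear signal of the liver markers was 637 to 1494 in wild type and 709 to 932 in hypomorph pools, which overlap. Their part in the result for Agt was not tested.

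Ren1 encodes renin, the protease that releases angiotensin I and is made in the kidney's juxtaglomerular cells. Its brighter probe lies at chr1:135187628-135187687 in mm8 and its other probe at chr1:135181736-135181795, both on the plus strand. On arrays 1, 2 and 4 wild type signals were 7.16, 7.09 and 6.90, and hypomorph signals were 7.01, 7.07 and 6.95, on the log2 scale. The genotypes overlapped. The array 3 spot of each Ren1 probe was marked as an outlier and left out. With the marks ignored, the brighter probe's ratio there was -0.22 and its mean over 4 arrays -0.08, with an adjusted p of 0.305 by limma.
The brighter probe gave a log2 ratio of -0.04 ± 0.10 (SD, n = 3), with a 95% interval of -0.19 to 0.12 and an adjusted p of 0.662 by limma. The other probe gave 0.00 ± 0.17 (SD, n = 3). The mean ratio of Agt lay outside the interval of the brighter probe. That probe was dim, however, at a mean log2 brightness of 7.02 beside 13.43 for Agt. The offset of 50 shrinks the ratios of dim probes, so a change as large as that of Agt was not excluded.
Ren1 has a near-identical copy, Ren2, in some mouse strains, so which copy the probes read is uncertain. Ren2's own probe gave 0.04 ± 0.17 (SD, n = 4), with an adjusted p of 0.727. Of 8 kidney and adrenal markers, Nphs1, Umod, Cyp11a1 and Cyp21a1 were among those not well above background, and the 2 that could be tested, Slc12a1 at 0.01 ± 0.19 and Star at -0.18 ± 0.21 (SD, n = 4), were not called.

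Ace encodes angiotensin converting enzyme, an ectoenzyme of endothelial cells that makes angiotensin II and breaks down bradykinin. Its brightest probe, at chr11:105805174-105805233 in mm8 on the plus strand, had wild type log2 signals of 11.74, 11.61, 11.80 and 12.01. The hypomorph pools had 11.50, 11.34, 11.68 and 11.75. The hypomorph pool was lower on each array, although the ranges of the genotypes overlapped.
The log2 ratio was -0.22 ± 0.07 (SD, n = 4), a 1.17-fold lower signal, with an adjusted p of 0.0179 by limma. A second, dimmer Ace probe, at chr11:105802147-105804133, gave -0.38 ± 0.13 (SD, n = 4) and an adjusted p of 0.00914 in the fit over probes. Its ratios were -0.19, -0.42, -0.42 and -0.47. With median centring its mean stayed at -0.32, still called with an adjusted p of 0.00419 in that fit. At a mean log2 brightness of 8.60 it was moved little by that setting, while the brightest probe went from -0.22 to 0.00. The kept call of the dimmer probe is therefore no independent support. Its call was lost without replicate 2 and without replicate 3. The third Ace probe, at chr11:105806254-105806313, was not well above background on any array in either genotype and was not tested.
The call of the brightest Ace probe was the least stable of the 4 members. It was lost without replicate 2 (adjusted p 0.0932), without replicate 4 (0.0615), with the scanner's processed signals (0.0668), with the deposited series table, with the unpaired channels and with median centring, and it held in 15 of 21 alternatives.

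Some endothelial markers were lower as well. Of 10 markers, 4 were lower and 1 was higher, with a median log2 ratio of -0.15 with loess and 0.33 with median centring. This is 50% called, beside 27.2% of all genes. The claudin gene Cldn5 had the smallest p, with -0.31 ± 0.10 (SD, n = 4) and an adjusted p of 0.0105. The summed linear signal, after loess, of the 7 endothelial genes with values in all pools was 210722 to 222907 in wild type and 183013 to 194875 in hypomorph pools. These ranges do not overlap, but how often sums of other genes do so was not counted. All 10 markers were detected. With median centring 8 endothelial markers were called higher and 0 lower. Without replicate 2 no endothelial marker kept its call, and 2 were lower without replicate 3 and 2 without replicate 4. The part of these markers in the Ace ratio was not tested.

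Enpep encodes aminopeptidase A, which turns angiotensin II into angiotensin III and is carried by pericytes and kidney epithelium. It had the lowest ratio of the members. The probe lies at chr3:129262014-129262073 in mm8 on the minus strand. On arrays 1, 2 and 4 the wild type log2 signals were 14.74, 14.71 and 14.32, and the hypomorph signals were 14.26, 14.15 and 13.93. Each hypomorph pool was below each wild type pool, the nearest being 14.26 and 14.32. The share of genes with values on 3 arrays that do so was not counted. The array 3 spot was marked for its background and left out, and with the mark ignored its ratio was -0.38.
The log2 ratio was -0.48 ± 0.08 (SD, n = 3), a 1.39-fold lower signal, with a 95% interval of -0.62 to -0.33 and an adjusted p of 0.00702 by limma. Of all genes, 2.88% had a lower ratio. The call was lost without replicate 2, with an adjusted p of 0.0570, with the unpaired channels and with median centring.

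The 3 genes whose ratios on arrays 1, 2 and 4 lay nearest to those of Enpep, by root mean square difference, were Aatk at 0.016, Crybg3 at 0.018 and the transcript named BU557601 at 0.023. Aatk had a mean log2 ratio of -0.48, Crybg3 -0.42 and BU557601 -0.46. Likeness over 3 arrays of 1 contrast is a description of these ratios alone.

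Some pericyte and mural cell markers were lower as well. Of 10 such markers 9 could be tested, and 4 were lower and 5 were not called. The median log2 ratio was -0.17 with loess and 0.10 with median centring. This is 44.4% called, beside 27.2% of all genes in either direction and 13.2% lower. Kcnj8 and Abcc9, which form the ATP-sensitive potassium channel of mural cells, had log2 ratios of -0.87 ± 0.14 and -0.77 ± 0.08 (SD, n = 4), with adjusted p of 0.00153 and 0.00132 by limma. These are 1.83-fold and 1.71-fold lower signals. The summed linear signal, after loess, of 8 of these genes was 80464 to 82708 in wild type and 64331 to 69434 in hypomorph pools. These ranges do not overlap, but how often sums of other genes do so was not counted. With median centring 2 of the markers were called higher and 2 lower. Without replicate 2 the markers called lower numbered 2. Pdgfrb could not be tested because its spots were marked. The part of these markers in the ratios of Enpep and Agtr1a was not tested.

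Agtr1a encodes the main AT1 receptor for angiotensin II, found on mural cells and fibroblast-like cells of the lung. Its brighter probe lies at chr13:30390234-30390293 in mm8, on the plus strand. Wild type log2 signals were 12.48, 12.42, 12.42 and 12.44, and hypomorph signals were 12.22, 11.97, 11.98 and 12.18. The wild type pools were nearly level, and each hypomorph pool was below all of them, as for 8.71% of the genes with values on 4 arrays.
The log2 ratio was -0.35 ± 0.11 (SD, n = 4), with a 95% interval of -0.48 to -0.22 and an adjusted p of 0.00878 by limma. The second probe, at chr13:30389344-30389403, gave -0.28 ± 0.17 (SD, n = 4) and an adjusted p of 0.0333 in the fit over probes, and the signals of its genotypes overlapped. Agtr1a was the 1 member still called when the channels were compared unpaired. The call of its brighter probe was lost without replicate 2, with an adjusted p of 0.0572, and with median centring. The second probe was still called lower with median centring, at -0.25 with an adjusted p of 0.0218 in the fit over probes. At a mean log2 brightness of 8.35 it was moved little by that setting, while the brighter probe went from -0.35 to -0.11. The kept call of the second probe is therefore no independent support. That probe lost its call without replicate 2 and without replicate 3.

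Agtr2 encodes the AT2 receptor, which is abundant in fetal mesenchyme and opposes several actions of the AT1 receptor. Its probe lies at chrX:20645397-20645456 in mm8, on the plus strand. Wild type log2 signals were 9.98, 9.85, 10.73 and 10.48, and hypomorph signals were 10.24, 10.07, 10.14 and 10.25. The wild type pools spread widely, with an SD of 0.41, while the hypomorph pools had an SD of 0.09 and lay inside the wild type range.
The ratios were 0.26, 0.22, -0.59 and -0.23, a mean of -0.08 ± 0.40 (SD, n = 4) with an adjusted p of 0.691 by limma. This SD was larger than that of 97.3% of genes. The 95% interval of -0.45 to 0.28 holds the mean ratio of Agtr1a, so a change of that size in Agtr2 was not excluded.

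The difference between the receptors was tested directly. Agtr2 minus Agtr1a was 0.52, 0.67, -0.15 and 0.02 on arrays 1 to 4, a mean of 0.27 ± 0.39 (SD, n = 4). An exact two-sided permutation test over signs gave p = 0.375, and the smallest p that 4 arrays allow is 0.125. The test could not have reached 0.05, and no difference or likeness of the receptors follows from it.

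Agtrap encodes a membrane protein that binds the tail of the AT1 receptor and promotes its internalization. It is represented by 4 probes on the minus strand of chromosome 4. The brightest, at chr4:146922975-146923034 in mm8, had wild type log2 signals of 12.96, 13.05, 12.74 and 12.92 and hypomorph signals of 12.50, 12.93, 12.82 and 12.88. The hypomorph pool of array 1 was the low one, and the genotypes overlapped.
Its mean ratio was -0.14 ± 0.23 (SD, n = 4), with an adjusted p of 0.295 by limma. The other Agtrap probes gave means of -0.07, 0.09 and 0.14, with adjusted p of 0.354, 0.256 and 0.150 in the fit over probes. Means of the Agtrap probes thus lay on both sides of 0 and were not called, while both kept probes of Ace and of Agtr1a were called lower. Over all kept member probes, 6 of 13 were lower and the other 7 were not called, where 12.2% of all probes were lower and 24.9% were called in either direction.

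**Figure D3:**
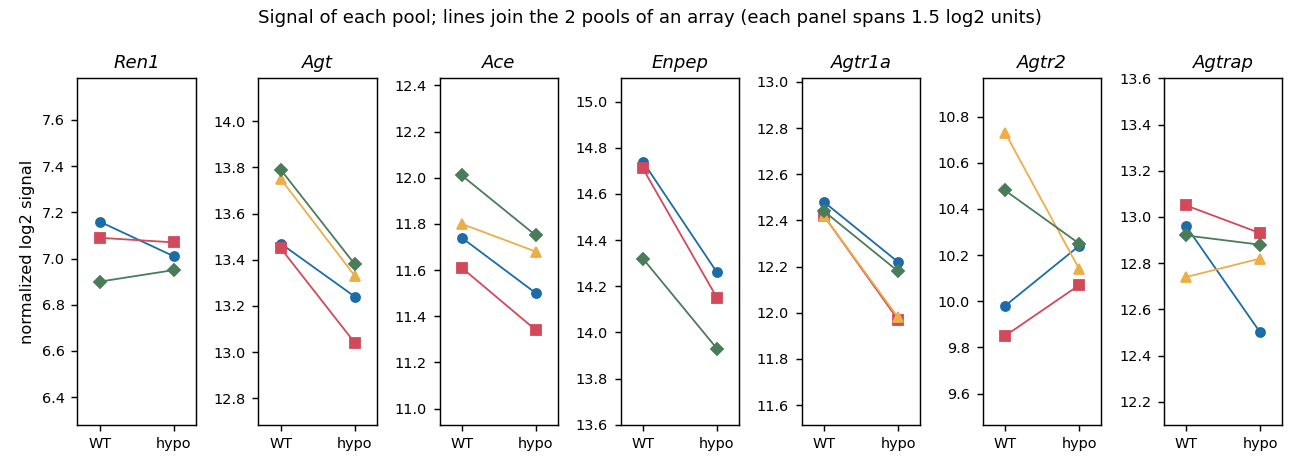
Normalized log2 signal of the wild type (WT) and hypomorph (hypo) pool of each array is plotted for the brightest probe of each member, and lines join the pools that shared an array. Every panel spans the same height on its own scale. All lines fall for Agt, Ace, Enpep and Agtr1a, while the lines of Agtr2 cross as the wild type pools spread from 9.85 to 10.73.

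Other genes that make, trim or bind angiotensin peptides moved both ways. Of 22 listed, 19 could be tested, and 5 were lower and 3 higher, with a median log2 ratio of 0.01. With median centring the split was 3 lower and 7 higher. In all, 42.1% of them were called, where 27.2% of all genes were. The Mas1 receptor was not well above background, and no probe of the names Cma2 or Mrgprd was found.

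Of the 3 proteases that are also mast cell markers here, 2 fell. Cma1, a gene of the chymase family, had a log2 ratio of -0.46 ± 0.03 (SD, n = 4) and an adjusted p of 0.00204 by limma. Cpa3, mast cell carboxypeptidase, had -0.48 ± 0.10 (SD, n = 4) and an adjusted p of 0.00372. Both were called in 21 of 21 alternatives, some of which could not change a ratio. Mcpt4, mast cell protease 4, had 0.07 and was not called. Among 8 mast cell markers 7 could be tested. These included Cma1 and Cpa3, which were the only ones lower, and Kit, which was higher but lost its call without replicate 2, 3 or 4. Of the tested markers 42.9% were called, where 27.2% of all genes were. The list's median was -0.04, and the spots of Hdc were marked. The list's summed linear signal was 9114 to 9862 in wild type and 9506 to 10325 in hypomorph pools, which overlap. Kit was the brightest tested marker, with a mean wild type log2 signal of 12.68, beside 10.40 for Cma1 and 10.18 for Cpa3. The sum therefore leans on Kit.

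Aminopeptidase N, encoded by Anpep, acts on angiotensin III, the product of Enpep, and fell with a log2 ratio of -0.30 ± 0.05 (SD, n = 4) and an adjusted p of 0.00671 by limma. Mme, which encodes neprilysin, fell by 0.19 on the log2 scale, with an adjusted p of 0.0205. Lnpep, the angiotensin IV binding aminopeptidase, also fell by 0.19, with an adjusted p of 0.0331, but was at 0.03 with median centring. Among the enzymes that rose, Prcp, prolylcarboxypeptidase, had 0.26 ± 0.08 (SD, n = 4) with an adjusted p of 0.0131. Dpp3, dipeptidyl peptidase III, had 0.23 ± 0.05 with an adjusted p of 0.0134, and Prep, prolyl endopeptidase, had 0.22 ± 0.14 with an adjusted p of 0.0442. Without replicate 2 or without replicate 3 Mme, Lnpep, Prcp, Dpp3 and Prep lost their calls, and Lnpep and Prep also lost theirs without replicate 4.

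Atp6ap2, the prorenin receptor, had a log2 ratio of -0.13 ± 0.05 (SD, n = 4) with an adjusted p of 0.0625 by limma, and 0.19 with median centring. Agtr1b, the second mouse AT1 receptor gene, had 0.06 ± 0.07 with an adjusted p of 0.348. Neither passed the test.

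**Figure D4:**
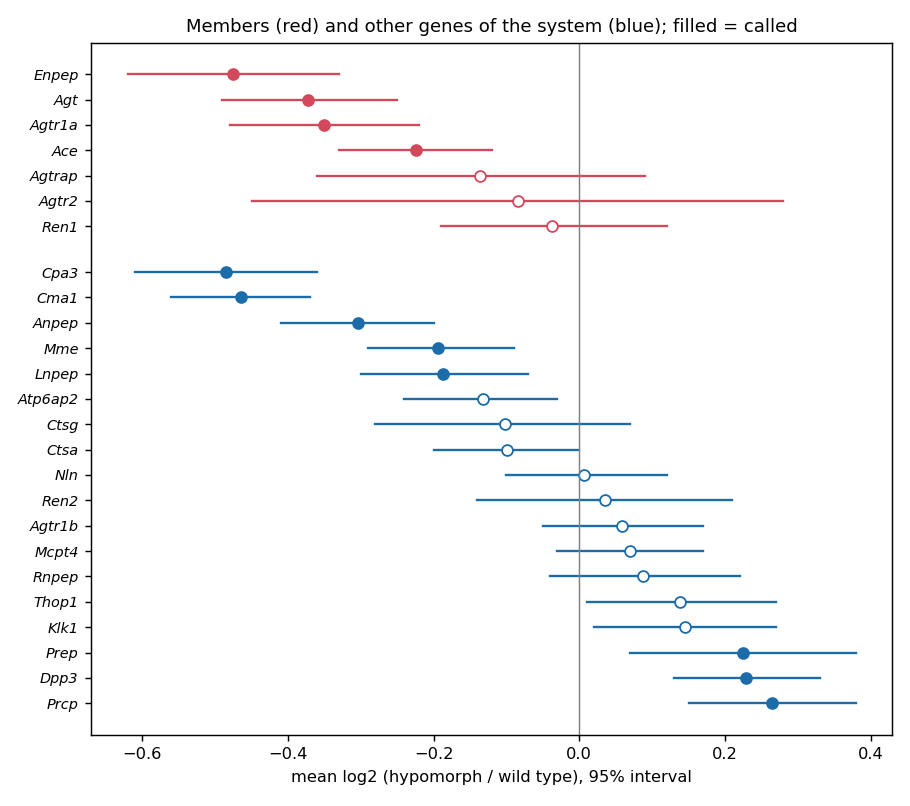
Mean log2 ratio of hypomorph over wild type with its 95% interval is plotted for the 7 members (red) and the other renin angiotensin genes reported here (blue), with filled circles for genes called. With loess and the brightest probe of each gene, all 7 members lie left of 0, from -0.48 for Enpep to -0.04 for Ren1. The other genes run from -0.48 for Cpa3 to 0.26 for Prcp.

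Kinin genes share enzymes with the system, because Ace also destroys bradykinin. Of 10 listed 8 could be tested, and 3 were lower and 2 higher, with a median of 0.00 with loess and 0.15 with median centring. This is 62.5% called, beside 27.2% of all genes. The lower genes include Kng1, the kininogen gene, which was not well above background in any hypomorph pool and at least 1.18-fold lower there. Kng1 passed the filter on dim probes only through the wild type pools, so its place among the lower genes is no support. Klkb1, plasma prekallikrein, had a log2 ratio of -0.31 ± 0.21 and the kininase gene Cpm had -0.21 ± 0.04 (SD, n = 4), although Cpm was at 0.27 with median centring. The kininase gene Cpn1 had 0.32 ± 0.14 and the aminopeptidase gene Xpnpep2 had 0.17 ± 0.05 (SD, n = 4), both called higher. All 5 lost their calls without replicate 2 and without replicate 3. Kng2 and the B2 bradykinin receptor gene Bdkrb2 were not well above background.

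Genes of angiotensin receptor coupling, among them G proteins, arrestins, phospholipases and receptor partners, were called about as often as all genes. Of 16 listed 14 could be tested, and 4 were lower and 10 were not called, with a median of -0.06. This is 28.6% called, near the 27.2% of all genes, and so no result about the list. With median centring the split was 1 lower and 7 higher, around a median of 0.17. Itpr1, the calcium release channel opened by inositol trisphosphate, had a log2 ratio of -0.40 ± 0.12 (SD, n = 4) and an adjusted p of 0.00701 by limma. Plcb4, a phospholipase C, had -0.40 ± 0.02 (SD, n = 3) and an adjusted p of 0.00716. Grk5, a receptor kinase, had -0.33 ± 0.09 with an adjusted p of 0.00847, and Jak2, a kinase that the AT1 receptor can engage, had -0.41 ± 0.07 on 3 arrays with an adjusted p of 0.00880. All 4 lost their calls without replicate 2, and Jak2 also without replicate 3.

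Aldosterone is the adrenal steroid released by angiotensin II, and its receptor acts on epithelial sodium channel genes. Of 9 genes of aldosterone action 8 could be tested, and 5 were lower and 3 were not called, with a median of -0.22. This is 62.5% called, beside 27.2% of all genes in either direction and 13.2% lower. With median centring the 2 genes called were higher, with a median of -0.03. The sodium channel subunits fell together, Scnn1a at -0.52 ± 0.10, Scnn1g at -0.44 ± 0.04 and Scnn1b at -0.26 ± 0.06 (SD, n = 4), and their adjusted p by limma were 0.00317, 0.00273 and 0.0112. Nedd4l, a ubiquitin ligase that removes the channel, had -0.31 ± 0.07 with an adjusted p of 0.00754. With median centring neither Nedd4l nor any subunit was called, and Scnn1a was at -0.01, Scnn1g at -0.14 and Scnn1b at -0.06. Tsc22d3, a steroid-induced gene, had -0.17 with an adjusted p of 0.0303, but 0.35 with median centring. Without replicate 2 only Scnn1a and Scnn1g kept their calls, and Tsc22d3 also lost its call without replicate 3 and without replicate 4. Hsd11b2, which guards the receptor from glucocorticoid, was not well above background.

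Markers of the remaining cell types were set beside the members in the same way. Among all genes 13.2% were lower and 14.0% higher. Of 8 smooth muscle markers 1 was higher and 1, Tagln, was lower at -0.32, and their summed linear signal was 64005 to 87283 in wild type and 66609 to 85573 in hypomorph pools. Of 8 fibroblast markers 1 was higher and 1, Pdgfra, was lower at -0.29, with sums of 167508 to 214009 and 182379 to 214967. Of 8 epithelial markers tested 4 were higher and 1, the water channel gene Aqp5 at -0.66, was lower, with sums of 206836 to 230471 and 206352 to 239233. The epithelial markers called higher numbered 1 without replicate 3 and 2 without replicate 4, and without replicate 2 none was. The smooth muscle and fibroblast markers called higher lost their calls without replicate 2, 3 or 4, and Pdgfra was called lower neither without replicate 2 nor without replicate 3.
Of 7 heart muscle markers 1 was lower, Ryr2 at -0.53, with sums of 72238 to 119930 in wild type and 71125 to 101145 in hypomorph pools. Of 4 blood markers tested 1 was higher and 1, Alas2, was lower at -0.22, with sums of 28955 to 38034 and 25311 to 31054, and no blood marker was called without replicate 2, 3 or 4. The ranges of the genotypes overlapped in each of these 5 lists. With median centring the smooth muscle, fibroblast, epithelial and blood lists held no gene called lower. The part of these markers in the members' ratios was not tested.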

How the data were processed

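Total RNA of 4 wild type and 4 hypomorph pools of 3 lungs each was hybridised in pairs to 4 arrays on 1 slide, read in 1 scan. The deposited mean and background intensities are raw scanner values, and the processed intensities were background-subtracted and dye-normalized, per the file headers. The authors' files also carry a log10 ratio, processed Cy5 over processed Cy3. A table of log2 values was deposited for the series, and no source used here says how it was made. Its values correlated at 1 with log2 of processed Cy5 over Cy3, with column medians of -0.05 to 0.00, which settles scale, centring and direction. The submitters' processing notes name Agilent Feature Extraction 9.5.1.

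Mean intensities were corrected with normexp (offset 50) and normalized by loess (span 0.3, control spots at weight 0) in limma 3.58.1 (R 4.3.3). Spots marked as outliers in the deposited marks (2136 to 2219 per array) were dropped, and repeated spots were averaged by probe. A probe stayed in when 3 or more arrays showed it well above background in either channel, with values on 3 or more, and the brightest probe stood for its gene. Whether a mean ratio differed from 0 was tested by limma (lmFit, eBayes), adjusted after Benjamini-Hochberg over 20611 genes (over 29991 probes for single probes), at a threshold of 0.05. The test was tried on simulated data. The labels call the 4 pairs of pools biological repeats, and p-values measure the spread between them. Signals per genotype are channel values after loess and Aquantile. A lower bound takes, per array, the higher of the dim signal and the lowest signal well above background, and it is open to dye bias. Names came from RefSeq accessions in a GRCm38.p6 gene table for 24375 of 41174 probes and otherwise from the files. Probe positions are in mm8, as in the files, and promoter sequences are RefSeq's in GRCm38.p6.

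The members and the gene lists were chosen with earlier results of these data known. Named were all members, Fgf8, up to 4 called genes of smallest p in each direction of each pathway list, Agtr1b, Mas1, Atp6ap2, Mme and Ren2 whatever their value, the gene of smallest p in each cell list with any called at least 1.5-fold, and the 3 genes nearest to the called member of largest ratio. Alternatives were other background corrections, normalizations, filters, probe rules and variance models, the processed signals, the deposited table, unpaired channels and leaving out each replicate. Feature sequences of the array and protein sequences were not used here. Results of 2 listed genes are not reported here.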

Additional observations from a re-analysis of the deposited data

Results flagged for a closer look

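Of 30 groups of 4 values of the member probes examined for a value far from the other 3, 3 stood out, where chance alone picks about 1 in 20. All 3 were on array 1. The Agt ratio there was -0.23, beside -0.42 to -0.41 on the other arrays. The ratio of the second Ace probe was -0.19 there, beside -0.47 to -0.42. The wild type signal of 1 Agtrap probe, at chr4:146921340-146921399, was 10.17 there on the log2 scale, beside 9.85 to 9.86.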

How the results depend on the processing

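There were 21 alternatives, 1 of them chosen after seeing the data (median centring less a running median along brightness). Agt and Agtr1a kept their calls in 19, Enpep in 18 and Ace in 15. None of the 4 changed sign, but with median centring Ace was at 0.00 and Enpep at -0.01, so their sign there shows no direction. The alternative chosen after seeing the data makes a correction along brightness as loess does, so its calls of these 4 genes are no independent support. Aquantile and the changed filters also left the ratios of these 4 genes as they were, and the deposited table repeated the processed signals. The counts of alternatives thus include settings that could not differ. The count of all genes called was 5608, with 10778 under median centring (8335 higher), 1399 with unpaired channels and 1407 to 5919 when 1 replicate was left out. Called members numbered 4, but 0 under median centring, 1 with unpaired channels and 1 to 4 without 1 replicate. Called member probes numbered 6, but 2 under median centring, 1 with unpaired channels and 1 to 6 without 1 replicate. Called other renin angiotensin genes numbered 8, but 2 with unpaired channels and 3 to 8 without 1 replicate. The lowest of each range came without replicate 2, and for the other renin angiotensin genes also without replicate 3. Under median centring 8 genes of the pathway lists called in either setting changed sign, besides genes of the cell lists, with log2 ratios of 0.19 for Atp6ap2, 0.0303 for Lnpep, 0.21 for Ctsa, 0.27 for Cpm, 0.31 for Serping1, 0.48 for Arrb1, 0.37 for Mtus1 and 0.35 for Tsc22d3. Its splits of higher and lower calls were 8 and 0 in endothelial, 2 and 2 in pericyte, 5 and 0 in smooth muscle, 4 and 0 in fibroblast, 6 and 0 in epithelial and 1 and 3 in mast cell lists, and 4 and 2 among kinin genes. The array pairs the pools, so the unpaired channels stand for a fit with no replicate block. All arrays had 1 dye orientation, and 4 arrays limit the precision.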
